A study of Mus musculus with 2 samples.

Results

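TNF superfamily ligands are the signals that T cells present to, or release towards, cells carrying the matching receptors. The genes described here were taken as listed: Tnfsf8, Cd40lg, Tnfsf11, Ltb, Lta, Tnf, Tnfsf10, Tnfsf14 and Fasl, which are 9 of the 28009 genes in both count matrices. The list itself uses no cut on a measured value. They were followed in single IL-10-producing CD4+ T cells by tissue, by the presence of a Foxp3 transcript and by the amount of Ccl5, a chemokine gene.

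The ligands of this family are mostly membrane proteins that act as trimers. Their receptors fall into those that recruit TRAF adaptors and switch on NF-kB, and those with a death domain that can start apoptosis. Activated CD4+ T cells use CD40 ligand to license B cells and dendritic cells, RANK ligand and lymphotoxins to organise lymphoid tissue, and Fas ligand and TRAIL to kill.

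Cells came from IL-10eGFP Foxp3mRFP double reporter mice aged 8 to 16 weeks. All mice had received anti-CD3 antibody (clone 2C11, 15 µg intraperitoneally) 2 times, on day 0 and day 2, and tissues were taken 4 h after the last dose. CD4+ T cells positive for the IL-10 reporter, including those expressing Foxp3, were sorted from spleen and from small intestine to ask how heterogeneous such cells are, and 1 droplet library (10x Genomics) was sequenced per tissue. Both groups therefore share genotype, age range and treatment, and no untreated or reporter-negative cells were analysed here. The study's methods describe EDTA and collagenase incubation and a Percoll gradient for intestinal lymphocytes, and no such steps for spleen. Cell preparation therefore cannot be told apart from tissue, and its part in the differences was not tested. The gate reads reporter protein, so a sorted cell need not hold Il10 mRNA at the time of capture. The number of mice behind each library is not given in the sources used here.

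The spleen matrix held 1738 barcodes and 11103530 unique molecular identifiers (UMIs, each standing for 1 captured mRNA molecule), and the small intestine matrix 1474 barcodes and 5693395 UMIs. After removal of low-quality and G2/M cells, 1468 splenic and 1277 intestinal cells remained, with medians of 5398 and 3696 UMIs. The libraries shared 0 barcodes. Of the T cell genes looked for, Cd3e, Cd3g and Cd4 were present in both, with summed levels of 2158 and 2991 UMIs per 1000000 UMIs (CPM) in spleen and intestine. Of the intestinal cells, 121 held UMIs of both Cd8a and Cd8b1, against 0 of the splenic cells, although both libraries are labelled CD4+. Cd79a, a B cell gene, was seen in 0.136% of splenic and 0.783% of intestinal cells, and Lyz2, a myeloid gene that T cells should lack, was seen in 2.52% of splenic and 0% of intestinal cells. With 1 library per tissue there are no replicates and no test of any difference. Levels are given in CPM with exact Poisson 95% intervals, ratios and shares with exact binomial 95% intervals, and all of these cover counting error only. Shares of cells were taken after thinning every cell to 2094 UMIs, which 1438 splenic and 1149 intestinal cells reached. UMIs count the 3′ ends of molecules, so levels of different genes were set side by side without dividing by gene length.

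Ltb, Tnf and Lta occupy 10.91 kb of chromosome 17 (GRCm38, 35194439 to 35205351), with Ltb on the plus strand and Tnf and Lta on the minus strand. Tnfsf14 lies on the same chromosome at 57189492 to 57194177. Tnfsf8 lies on chromosome 4 (63831308 to 63861347, minus strand), Fasl on chromosome 1 (161780689 to 161788495, minus strand) and Cd40lg on the X chromosome (57212143 to 57224042, plus strand). Tnfsf11 lies on chromosome 14 (78277445 to 78308043, minus strand) and Tnfsf10 on chromosome 3 (27317028 to 27342427, plus strand). Ltb overlaps the microRNA gene Mir6973a and Lta overlaps Mir6974, on the same strand in each case, so reads of these pairs cannot be told apart by strand.

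Upstream sequences are shown for Tnfsf8, Ltb and Fasl, the ligand genes on which most of the differences below turn. They are taken from RefSeq (GRCm38.p6) on the gene's own strand, 5′ to 3′, and end where the annotated gene begins: Tnfsf8 at chr4:63861348-63861534 (minus strand), Ltb at chr17:35194257-35194438 (plus strand) and Fasl at chr1:161788496-161788745 (minus strand). Capitals mark GGAAA, the core letters bound by NFAT, on either strand (TTTCC where it is read on the other strand), and in Ltb the longer run of capitals also holds a match to the NF-kB motif that overlaps it.
Tnfsf8: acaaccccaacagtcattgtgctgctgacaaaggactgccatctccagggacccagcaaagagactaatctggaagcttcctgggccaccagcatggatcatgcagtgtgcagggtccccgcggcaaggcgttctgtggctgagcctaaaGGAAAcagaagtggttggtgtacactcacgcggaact
Ltb: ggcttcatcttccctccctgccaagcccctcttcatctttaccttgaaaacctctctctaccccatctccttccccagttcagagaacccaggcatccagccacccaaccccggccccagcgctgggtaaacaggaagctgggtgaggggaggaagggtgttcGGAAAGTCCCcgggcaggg
Fasl: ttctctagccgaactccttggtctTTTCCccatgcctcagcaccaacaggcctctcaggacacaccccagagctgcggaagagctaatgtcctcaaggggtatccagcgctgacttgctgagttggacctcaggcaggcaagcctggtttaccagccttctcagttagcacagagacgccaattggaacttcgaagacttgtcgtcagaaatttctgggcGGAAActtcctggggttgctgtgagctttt
NFAT is the factor that calcineurin activates when the T cell receptor is triggered, as anti-CD3 does. Over the 250 bases before the RefSeq start, all 8 ligand genes with a RefSeq stretch held GGAAA on either strand, as did 55.6% of 27025 stretches of that length. The AP-1 motif TGANTCA was found in 1 of the 8 (Tnfsf14) and in 6.87% of all stretches, and the NF-kB motif in 1 of the 8 (Ltb) and in 7.01%. A match describes letters in a window and not a bound site.

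Spleen and small intestine differed in which ligands led. The 9 genes together made up 0.0774% of splenic and 0.0370% of intestinal UMIs (7086 and 1861 UMIs). In spleen, Ltb and Tnfsf8 accounted for 60.8% and 32.2% of all ligand UMIs, and each of the other 7 genes for at most 2.20%. In intestine the sum was spread over more genes: Ltb gave 41.8%, Fasl 20.5%, Cd40lg 11.1%, Tnfsf8 10.4%, Tnfsf10 8.11% and Tnf 7.15%. Of the 7 ligand genes with at least 50 UMIs in the 2 tissues, 3 were at least 2-fold higher in spleen (Tnfsf8, Tnfsf11 and Ltb), where 13.6% of 9032 genes passed that bound. The remaining 4 were at least 2-fold lower in spleen (Cd40lg, Tnf, Tnfsf10 and Fasl), where 10.4% of genes passed. The median log2 ratio over all genes was 0.02. Over the 7 ligand genes it was −1.27, which is the ratio of Cd40lg, and over all 9 ligand genes it was 1.40. The sign of the ligand median thus depends on the UMI minimum, and it gives no direction for the family.

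**Figure D1:**
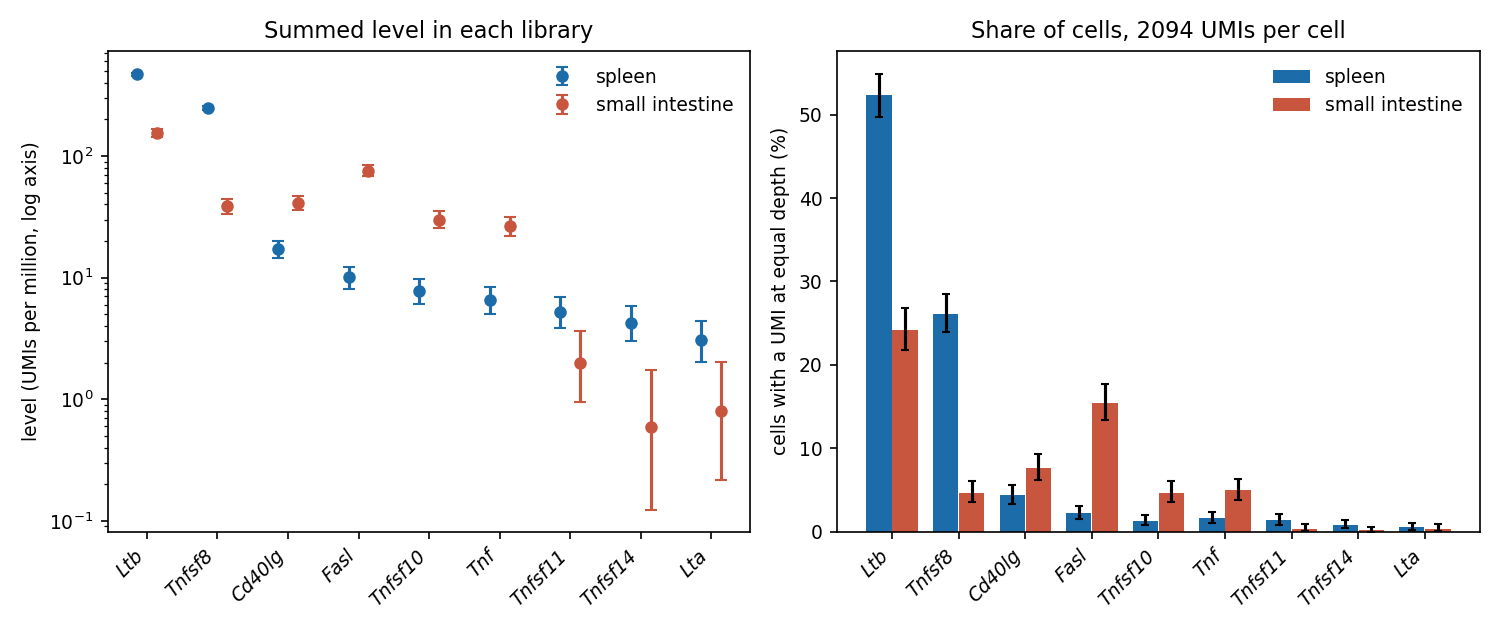
Level of each TNF family ligand in the spleen and small intestine libraries, in CPM on a log axis, with exact Poisson 95% intervals (1 library per tissue), beside the share of cells with a UMI at equal depth. Ltb and Tnfsf8 led in spleen at 471 and 249 CPM, whereas Fasl (75.7 CPM), Cd40lg (41.1), Tnfsf10 (30.01) and Tnf (26.4) were higher in intestine.

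Among the ligands that act on lymphoid and antigen-presenting cells, Tnfsf8 showed the widest splenic excess of those with at least 50 UMIs. Tnfsf8 encodes CD30 ligand, which signals to CD30 on activated lymphocytes. Its level was 249 CPM in spleen (95% interval 239 to 259.8) and 38.6 CPM in intestine (33.3 to 44.4), a 6.47-fold difference (5.58 to 7.53). A Tnfsf8 UMI was found in 26.1% of splenic cells (23.9 to 28.5) and 4.70% of intestinal cells (3.55 to 6.09) at equal depth, so the difference lay in the number of cells as well as in the sum. Ltb, the membrane-anchoring chain of the lymphotoxin heterotrimer, was 3.05-fold higher in spleen (2.82 to 3.29), at 471 CPM (457 to 485) against 155 CPM (144 to 166). It was seen in 52.3% of splenic and 24.2% of intestinal cells, which made it the most widespread ligand in both tissues. Its partner Lta, which forms soluble homotrimers or joins Ltb at the membrane, gave 28 UMIs in spleen and 4 in intestine, so Ltb was present largely without counted Lta.

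Cd40lg ran the other way. CD40 ligand, the classical helper signal to B cells, was 2.41-fold higher in intestine (1.95 to 2.99), at 41.1 CPM (35.7 to 47.1) against 17.05 CPM (14.5 to 19.9) in spleen. With size factors pooled across cells its log2 ratio was −0.99 in place of −1.27, just short of the 2-fold bound. It was detected in 7.66% of intestinal and 4.38% of splenic cells. Tnfsf11, which encodes RANK ligand, was rare in both, with 48 UMIs in spleen (5.25 CPM, 3.87 to 6.95) and 10 in intestine (1.99 CPM, 0.953 to 3.65). Its log2 ratio of 1.40 (0.40 to 2.55) was 0.65 when G2/M cells were kept, since 6 further UMIs came from 62 intestinal G2/M cells. Tnfsf14, or LIGHT, a ligand for HVEM and the lymphotoxin beta receptor, gave 39 UMIs in spleen and 3 in intestine, a 7.15-fold difference (2.27 to 36.2). Tnfsf14 and Lta did not reach 50 UMIs and were not counted in either direction.

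The death ligands and Tnf were all higher in intestine. Fasl, whose product triggers apoptosis through Fas, was 7.53-fold higher there (5.98 to 9.56), at 75.7 CPM (68.3 to 83.7) against 10.1 CPM (8.10 to 12.3). It was found in 15.5% of intestinal cells (13.5 to 17.7) and 2.23% of splenic cells (1.53 to 3.13). Tnfsf10, which encodes TRAIL, stood at 30.01 CPM (25.4 to 35.2) in intestine and 7.76 CPM (6.06 to 9.79) in spleen, with shares of 4.70% and 1.32%. Tnf, the founding inflammatory cytokine of the family, stood at 26.4 CPM (22.1 to 31.3) and 6.56 CPM (5.003 to 8.44), with shares of 4.96% and 1.60%. Thus Fasl was the second ligand of the intestinal library and a minor ligand of the splenic library. Among intestinal cells, the levels of Tnfsf8, Cd40lg, Tnfsf10 and Tnf lay between 26.4 and 41.1 CPM. In that order, Cd40lg and Tnfsf8 had overlapping intervals, as did Tnfsf8 and Tnfsf10, and Tnfsf10 and Tnf.

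The shares of rare ligands need a background. Lyz2 was seen in 1.25% of splenic cells at equal depth, close to the splenic shares of Tnf (1.60%), Tnfsf11 (1.39%) and Tnfsf10 (1.32%) and above those of Tnfsf14 (0.834%) and Lta (0.556%). Splenic expression of these 5 ligands could therefore not be told from free RNA by their shares alone. The median depths of the libraries before thinning, 5398 and 3696 UMIs, differ by 1.46 times.

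Ligand transcripts were unevenly divided among positive cells. Among 560 splenic cells with Tnfsf8 the median was 2 UMIs and the highest 42, and 144 cells with at least 5 UMIs held 68.0% of all its splenic UMIs. Ltb was spread over 1151 splenic cells with a median of 3 UMIs and a highest value of 31. In intestine 7 cells held at least 5 Tnfsf8 UMIs, among 80 positive cells, and 310 cells were positive for Fasl with a median of 1 UMI and a highest value of 5. Intestinal Ltb reached 19 UMIs, and 20 cells held at least 5. High counts per cell were thus seen for Tnfsf8 and Ltb in spleen and hardly for Fasl in intestine. These counts were taken before thinning, so they also follow the depth of the library and the level of the gene.

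Graph clusters placed each ligand within its tissue. They were built without the 9 ligands, 9 other ligands of the superfamily and the 10 receptor genes of the 9 ligands. Other receptors of the superfamily, such as Tnfrsf9, were not left out. Clusters are called here by their leading genes other than those left out. With the left-out genes included, the splenic cluster led by Tbc1d4 had Tnfsf8 as its top gene and Fas among its leading 5. Clusters built from these cells describe their heterogeneity, and their levels carry no test. In spleen, 300 cells led by Tbc1d4, Lpar3, Plscr1, Tcf7 and Il21 held Tnfsf8 at 842 CPM (794 to 891). The next cluster, led by Bach2 and Atad3a, stood at 362 CPM (325 to 401), and the lowest, led by Tnfrsf9, Sv2c, Ccr8 and Foxp3, at 39.2 CPM (30.1 to 50.1). The Tbc1d4 cluster was 20.4% of splenic cells and held 51.4% of splenic Tnfsf8 UMIs. Of the 144 splenic cells with at least 5 Tnfsf8 UMIs, 82 were in this cluster and 24 in the Bach2 cluster. It also held 12 of the 28 splenic Lta UMIs.

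Ltb followed another order. Its highest splenic level, 780 CPM (726 to 837), was in 238 cells led by Pik3ip1, Ccr7 and Txnip, genes of resting or recirculating T cells. The Foxp3 cluster followed at 558 CPM (522 to 596) and the Tbc1d4 cluster at 521 CPM (484 to 561), with overlapping intervals. The lowest levels, 314 to 318 CPM, were in the clusters led by Ccl5, by Bach2 and by Lgals3, whose intervals also overlapped. Ltb thus varied by 2.48-fold across splenic clusters and Tnfsf8 by 21.5-fold. Tnf gave 0 UMIs in the 238 cells of the Ccr7 cluster, whose exact interval reaches 3.67 CPM. Cd40lg was lowest in the Foxp3 cluster at 2.49 CPM (0.678 to 6.37) and stood at 28.7 to 29.8 CPM in the Tbc1d4 and Ccr7 clusters. Fasl was highest in the cluster led by Ccl5, Ccl3 and Ccl4, at 43.1 CPM (30.5 to 59.2), with the Lgals3 and Cxcr6 cluster next at 16.9 CPM (10.0 to 26.8).

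In intestine, a cluster of 180 cells led by Il17a, Tmem176b and Tmem176a stood apart in its ligands. Its Ltb level was 382 CPM (338 to 430), against 207 CPM (175 to 244) in the next cluster, led by Ahnak and Lag3. Its Tnfsf8 level was 137 CPM (111 to 167), against 76.9 CPM (58.3 to 99.7) in the cluster led by Sv2c and Ramp3. Fasl and Tnfsf10 were at 25.5 and 8.49 CPM there, whereas Fasl stood at 59.1 to 96.5 CPM and Tnfsf10 at 25.6 to 49.8 CPM in the other 5 clusters. The 2 intestinal cells with at least 10 Tnfsf8 UMIs were both in the Sv2c cluster.

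The 123 intestinal cells led by Cd8b1 and Cd8a held 0 Tnfsf8 UMIs, whose exact interval reaches 5.74 CPM. Their Cd40lg and Tnf levels were 3.11 CPM each (0.377 to 11.2), whereas the other 5 clusters ran from 37.5 to 70.9 CPM for Cd40lg and from 25.5 to 39.7 CPM for Tnf. Tnfsf10 was highest there, at 49.8 CPM (34.0 to 70.3), with an interval that overlapped those of clusters led by Ahnak (36.9 CPM) and Cd7 (36.5 CPM). Fasl stood at 59.1 CPM (41.8 to 81.2). Ltb stood at 56.0 CPM (39.2 to 77.5), its lowest level among intestinal clusters. The Cd8 cells therefore held mainly Fasl, Ltb and Tnfsf10 and hardly any Tnfsf8, Cd40lg or Tnf. Cd40lg was highest, at 70.9 CPM (52.7 to 93.5), in the Ahnak and Lag3 cluster.

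**Figure D2:**
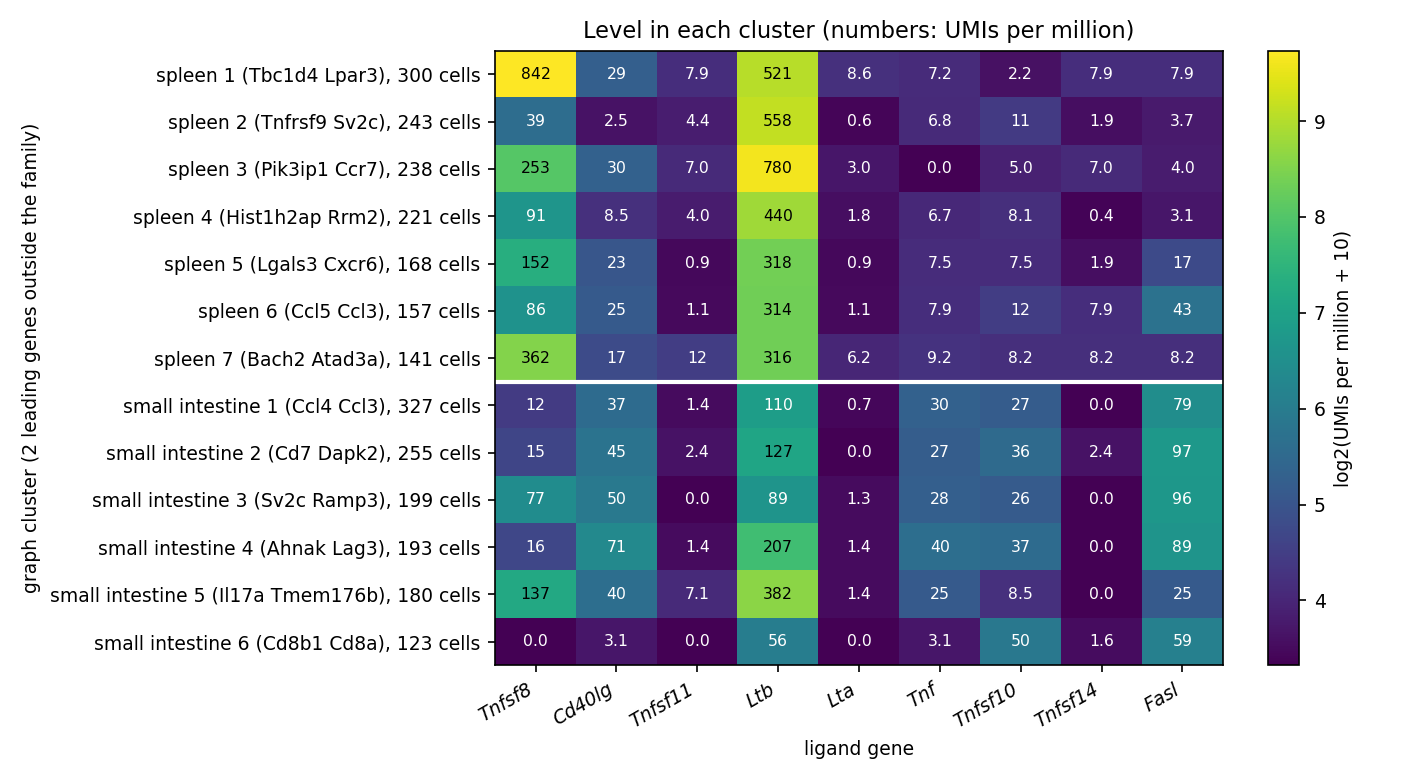
Level of each ligand in the 7 splenic and 6 intestinal graph clusters, with CPM printed in each field and log2(CPM + 10) as the colour, and clusters named by leading genes. Tnfsf8 reached 842 CPM in the splenic Tbc1d4 cluster, Ltb 780 CPM in the Ccr7 cluster, and both Tnfsf8 and Ltb were higher in the intestinal Il17a cluster than in the other intestinal clusters.

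Splenic cells were next divided by Foxp3, the lineage factor of regulatory T cells. Of 1468 splenic cells, 280 held a Foxp3 UMI, and these were deeper, with a median of 7666 UMIs against 5048. A cell with no Foxp3 UMI may still express the gene. Of the 280 cells, 136 were in the Foxp3 cluster and 94 in a cluster of 221 cells led by Hist1h2ap and Rrm2, genes of dividing cells. That cluster held Tnfsf8 at 91.1 CPM, Cd40lg at 8.52 CPM and Fasl at 3.14 CPM. Its part in the ratios by Foxp3 was not tested. Of 6 ligand genes with at least 50 UMIs, 3 were at least 2-fold lower in cells with a Foxp3 UMI (Tnfsf8, Cd40lg and Fasl), where 2.53% of 8117 genes passed that bound. Of the same 6, 0 were at least 2-fold higher, where 1.47% of genes passed. The median log2 ratio was 0.04 over all genes and −1.24 over the 6 ligand genes.

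Tnfsf8 stood at 40.9 CPM (33.1 to 49.98) in cells with a Foxp3 UMI and at 320.3 CPM (307 to 334) in the others, a log2 ratio of −2.97 (−3.28 to −2.67). At equal depth 5.78% and 31.0% of these cells held a Tnfsf8 UMI, and 4 of the 144 Tnfsf8-rich cells had a Foxp3 UMI. Without the Tbc1d4 cluster, which held 9 of the 280 cells with a Foxp3 UMI, the log2 ratio was −2.57. Where at least 2 Foxp3 UMIs were asked for (133 cells), it was −4.71. Among the 6 ligand genes, Tnfsf8 had the ratio farthest from 0 on the log2 scale. Cd40lg stood at 5.16 CPM (2.67 to 9.02) against 21.1 CPM (17.8 to 24.8), a log2 ratio of −2.03 (−3.02 to −1.18), from 12 and 144 UMIs. Fasl stood at 3.01 CPM (1.21 to 6.21) against 12.4 CPM (9.94 to 15.4), a log2 ratio of −2.05 (−3.40 to −0.94), from 7 and 85 UMIs.

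Ltb did not share this pattern. Its level was 513 CPM (484 to 543) with a Foxp3 UMI and 457 CPM (441 to 473) without, a log2 ratio of 0.17 (0.07 to 0.26), and 58.1% and 50.9% of cells held it. Tnf stood at 5.16 against 7.03 CPM, a log2 ratio of −0.45 whose interval (−1.49 to 0.49) held 0. Tnfsf10 stood at 9.90 against 7.03 CPM, a log2 ratio of 0.49 whose interval (−0.29 to 1.24) also held 0. Tnfsf11 gave 13 and 35 UMIs, or 5.59 and 5.13 CPM. Lta gave 2 and 26 UMIs (0.861 and 3.81 CPM) and Tnfsf14 gave 2 and 37 (0.861 and 5.42 CPM). The 28 intestinal cells with a Foxp3 UMI held 47 Ltb UMIs (315 CPM, 231 to 418) and 4 Tnfsf8 UMIs (26.8 CPM, 7.30 to 68.6). Fasl in those cells gave 3 UMIs (20.1 CPM, 4.14 to 58.7), against 77.4 CPM (69.8 to 85.6) in intestinal cells without a Foxp3 UMI. Of the 28 cells, 22 were in the Il17a cluster, which held Fasl at 25.5 CPM, Ltb at 382 CPM and Tnfsf8 at 137 CPM. What part cluster and Foxp3 each have in these intestinal values was not tested.

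**Figure D3:**
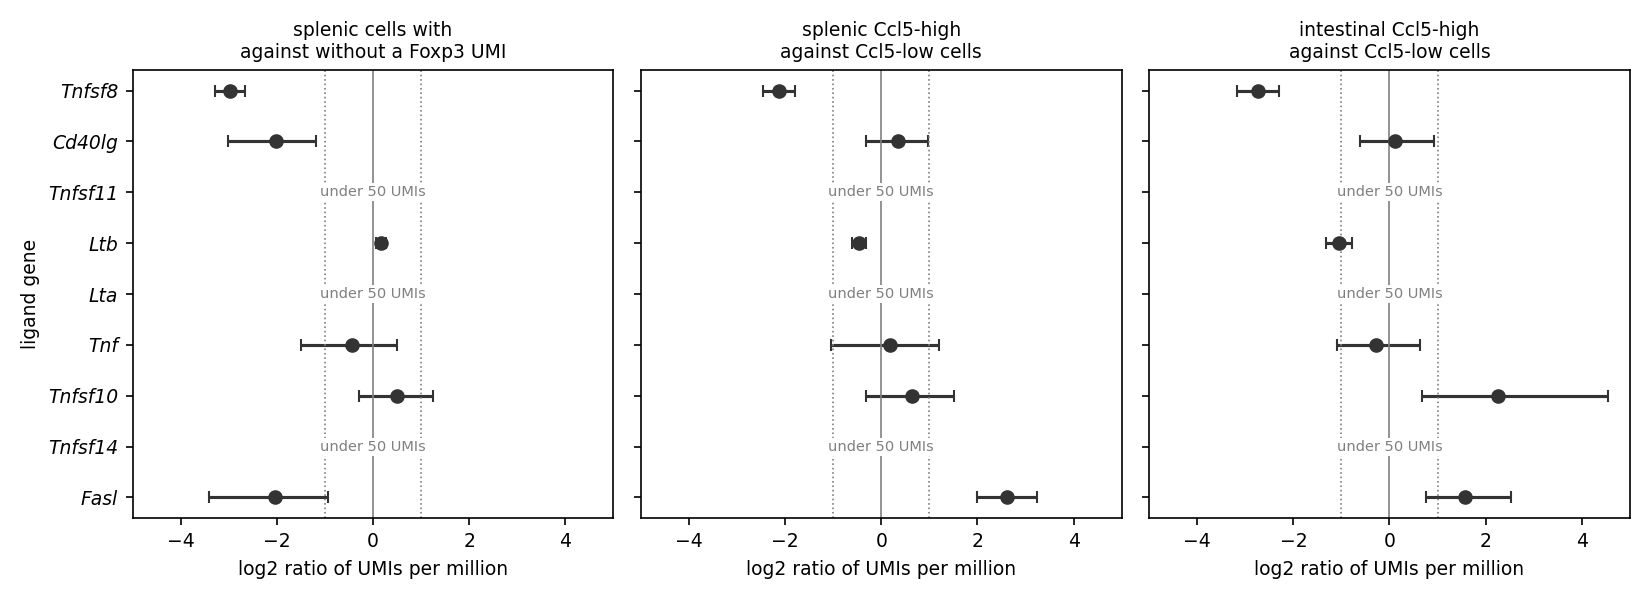
Log2 ratio of each ligand for splenic cells with against without a Foxp3 UMI and for Ccl5-high against Ccl5-low cells in spleen and in small intestine, with exact binomial 95% intervals; dotted lines mark 2-fold, and genes under 50 UMIs are left blank. Tnfsf8 lay at −2.97, −2.13 and −2.73 in the 3 comparisons, whereas Fasl lay at −2.05, 2.61 and 1.57.

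Ccl5-high cells were defined as those with at least 10 Ccl5 UMIs per 10000. They made up 224 of the 1468 splenic and 1177 of the 1277 intestinal cells. This is a range of a continuous amount and not a cell type: 81 splenic and 125 intestinal cells lay between 5 and 20 per 10000. No Ccl5 UMI was held by 814 splenic and 6 intestinal cells, and 179 intestinal cells lay below 40 per 10000. Whether free RNA gave the low Ccl5 counts of intestinal cells was not tested. The bound of 10 therefore need not part expressing from non-expressing cells there. Of the 224 splenic Ccl5-high cells, 150 were in the cluster led by Ccl5, Ccl3 and Ccl4, and of the 100 intestinal Ccl5-low cells, 95 were in the Il17a cluster. The Ccl5-low side of the intestinal comparison therefore comes nearly all from that cluster, whereas 85 of the cluster's 180 cells lie on the Ccl5-high side. The splenic and intestinal Ccl5-low cells belong to different clusters. The ratios between tissues given above mix tissue with Ccl5 state. Among Ccl5-high cells, Fasl stood at 36.3 CPM in spleen and 80.4 CPM in intestine, and Tnfsf8 at 63.8 and 25.7 CPM. Among Ccl5-low cells, Fasl stood at 5.94 and 27.0 CPM, and Tnfsf8 at 278 and 171 CPM. What part tissue and state each have was not tested.

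In spleen, 1 of 6 ligand genes was at least 2-fold higher in Ccl5-high cells (Fasl), where 2.46% of 8117 genes passed, and 1 was at least 2-fold lower (Tnfsf8), where 3.59% passed. The median log2 ratio was −0.03 over all genes and 0.26 over the 6 ligand genes. Fasl stood at 36.3 CPM (26.5 to 48.6) against 5.94 CPM (4.36 to 7.90), a log2 ratio of 2.61 (1.99 to 3.23), and was seen in 8.37% against 1.14% of cells. Tnfsf8 stood at 63.8 CPM (50.5 to 79.5) against 278 CPM (267 to 290.3), a log2 ratio of −2.13 (−2.47 to −1.80). Without the Tbc1d4 cluster, which held 5 of the 224 Ccl5-high cells, the log2 ratio of Tnfsf8 was −1.37. With the bound at 5 Ccl5 UMIs per 10000 it was −1.33, since the 47 cells between 5 and 10 held Tnfsf8 at 352 CPM. Ltb was lower by less, at 355 against 489 CPM (log2 ratio −0.46, −0.61 to −0.32). The levels of Cd40lg (21.0 against 16.4 CPM), Tnf (7.26 against 6.45 CPM) and Tnfsf10 (11.3 against 7.20 CPM) had intervals of the ratio that held 0 on the log2 scale. Tnfsf11 gave 1 UMI in Ccl5-high and 47 in Ccl5-low cells (0.807 against 5.94 CPM). Tnfsf14 gave 9 and 30 UMIs, or 7.26 against 3.79 CPM, a log2 ratio of 0.94 whose interval (−0.32 to 2.05) held 0.

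In intestine, 2 of 6 ligand genes were at least 2-fold higher in Ccl5-high cells (Tnfsf10 and Fasl), where 5.81% of 6870 genes passed, and 2 were at least 2-fold lower (Tnfsf8 and Ltb), where 6.36% passed. The median log2 ratio was −0.14 over all genes and −0.08 over the 6 ligand genes. Most genes thus held a slightly smaller share of the UMIs of Ccl5-high cells, which CPM cannot tell from lower expression. Tnfsf8 stood at 25.7 CPM (21.3 to 30.8) in Ccl5-high and 171 CPM (135 to 214) in Ccl5-low cells, a log2 ratio of −2.73 (−3.16 to −2.30). Ltb stood at 141 CPM (131 to 152) against 293 CPM (245 to 348), a log2 ratio of −1.05 (−1.33 to −0.77) that lay close to the 2-fold bound. It was −0.92 when levels were scaled to the median gene and −0.93 without cells holding Cd8a and Cd8b1. Fasl stood at 80.4 CPM (72.4 to 89.1) against 27.0 CPM (14.0 to 47.2), a log2 ratio of 1.57 (0.75 to 2.54). Tnfsf10 stood at 32.3 CPM (27.3 to 37.9) against 6.76 CPM (1.39 to 19.7), a log2 ratio of 2.25 (0.68 to 4.55) that rested on 3 UMIs in Ccl5-low cells. Cd40lg (41.4 against 38.3 CPM) and Tnf (25.9 against 31.5 CPM) had intervals that held a log2 ratio of 0. The B cell gene Cd79a gave 16 UMIs in 8 of the 1177 Ccl5-high cells and 10 UMIs in 2 of the 100 Ccl5-low cells.

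Because nearly all intestinal Ccl5-low cells shared a cluster, the Il17a cluster was divided by Ccl5. Its 85 Ccl5-high cells held Tnfsf8 at 100.1 CPM (67.0 to 144) and its 95 Ccl5-low cells at 163 CPM (127 to 207), whereas the 1092 Ccl5-high cells of the other clusters held it at 20.7 CPM (16.6 to 25.5). Fasl stood at 27.6 CPM (11.9 to 54.4) and 24.0 CPM (11.5 to 44.1) within the cluster and at 84.0 CPM (75.5 to 93.1) outside it. Ltb was higher in the Ccl5-high than in the Ccl5-low cells of the cluster, at 490.2 CPM (413 to 578) against 307 CPM (256 to 365), and stood at 118 CPM (108 to 128) outside it. Within this cluster the Ltb difference thus ran opposite to that over all intestinal cells. Tnfsf8 was lower in the Ccl5-high than in the Ccl5-low cells of the cluster, as over all intestinal cells. The level intervals of Tnfsf8 and of Fasl overlapped within the cluster, which does not show that levels were equal. What part cluster and Ccl5 each have in the intestinal differences was not tested.

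Over the range of Ccl5, splenic Tnfsf8 stood at 290.3, 252 and 352 CPM in cells with no Ccl5 UMI, with up to 5 and with 5 to 10 per 10000, and at 116, 30.6, 52.5 and 63.2 CPM in the 4 bins above. Splenic Fasl stood at 6.20, 4.93 and 12.7 CPM in the lower 3 bins. It stood at 29.1 CPM (6 UMIs) from 10 to 20 per 10000 and at 10.2 CPM (2 UMIs) from 20 to 40. In the upper 2 bins it reached 41.4 and 46.3 CPM, so the rise was not steady. Intestinal Tnfsf8 stood at 82.2 to 195 CPM in the 5 bins between 0 and 160 per 10000 and at 13.4 CPM (10.0 to 17.5) in the 1005 cells with at least 160. Intestinal Tnfsf10 stood at 8.86, 6.51 and 4.56 CPM in the lower 3 bins with Ccl5, from 1, 2 and 1 UMIs. It stood at 14.5, 27.1 and 34.7 CPM in the upper 3, from 1, 11 and 135 UMIs. In spleen, Tnfsf8 was thus lower in each of the 4 bins from 10 Ccl5 UMIs per 10000 than in the 3 below. In intestine it was lowest from 160, and the bins with Ccl5 below 160 hold 22 to 93 cells each. The splenic level of 116 CPM from 10 to 20 lay within the 82.2 to 130 CPM of the intestinal bins from 10 to 160.

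**Figure D4:**
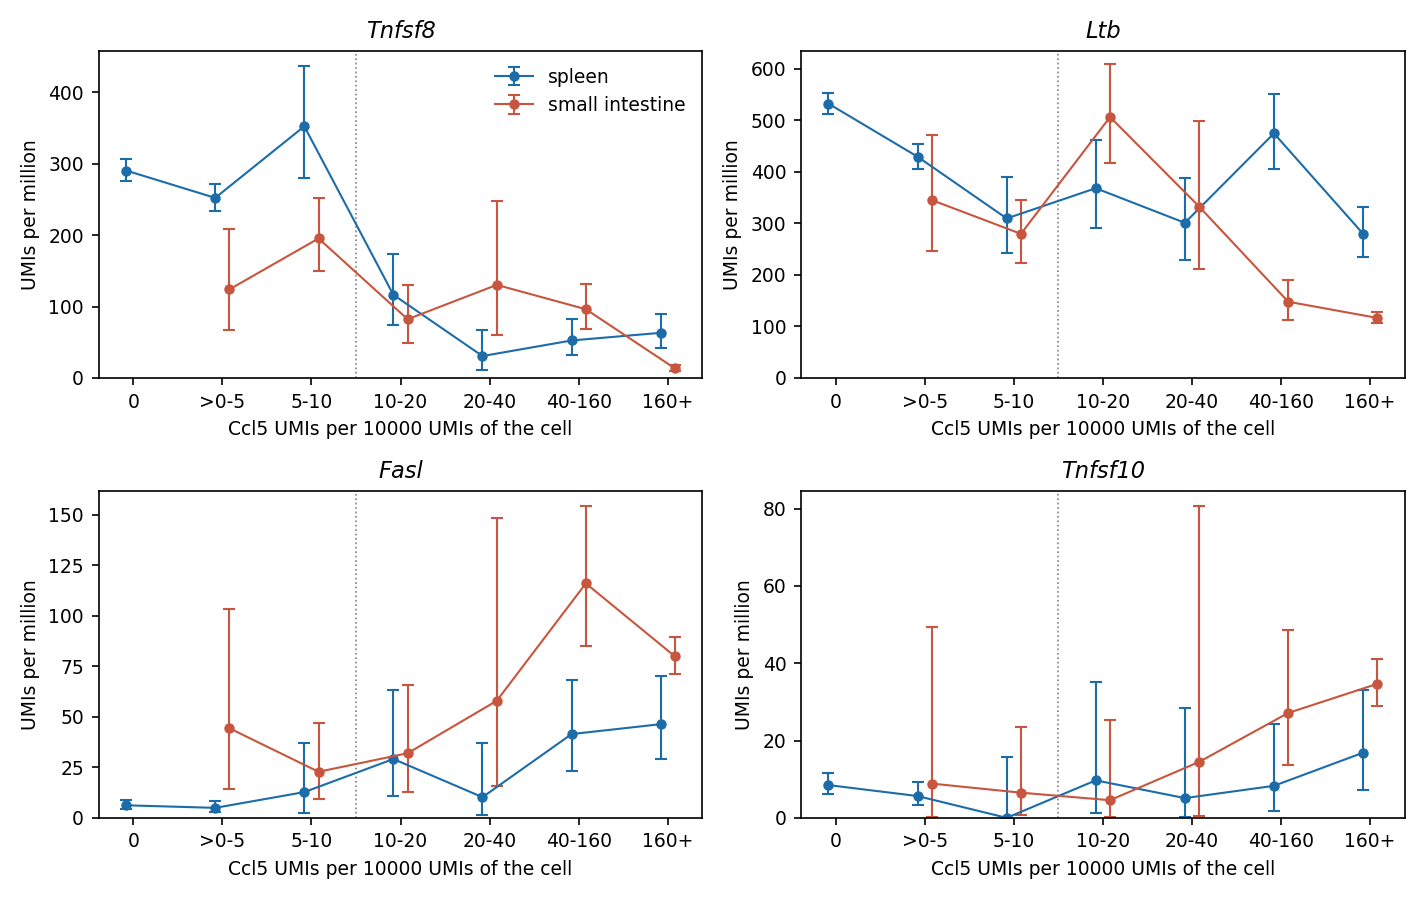
Level of Tnfsf8, Ltb, Fasl and Tnfsf10 (CPM, linear axis from 0, exact Poisson 95% intervals) across bins of Ccl5 UMIs per 10000, with the dotted line at 10 and the 6 intestinal cells with no Ccl5 UMI left out. Splenic Tnfsf8 stood at 252 to 352 CPM up to 10 Ccl5 UMIs per 10000 and at 30.6 to 116 CPM above, whereas splenic Fasl reached 46.3 CPM in the highest bin.

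Co-detection was read at equal depth, for pairs beside the number of cells that the product of the shares gives. The shares of cells with at least 2 ligands have no such number beside them. They depend on the share of each single ligand and not on co-detection alone. In spleen, 69.2% of cells held at least 1 of the 9 ligands and 19.1% (17.1 to 21.3) at least 2, with 4 as the highest number. In intestine, 49.6% held at least 1 and 11.5% (9.70 to 13.5) at least 2. At least 2 ligands were seen in 7.22% of splenic cells with a Foxp3 UMI (4.47 to 10.9) and 22.0% of those without (19.6 to 24.5). The share was 10.7% in splenic Ccl5-high and 20.6% in Ccl5-low cells, and 37.8% (32.2 to 43.6) in the Tbc1d4 cluster. In that cluster Tnfsf8 and Ltb met in 91 cells, against 90.8 from the product. The share of cells with at least 2 ligands was 10.8% in intestinal Ccl5-high and 20.2% in Ccl5-low cells. It was 1.72% in intestinal cells with UMIs of both Cd8a and Cd8b1, and 4.27% in the cluster led by Cd8b1 and Cd8a.

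In spleen, the most abundant pair met about as often as the product of the shares gives. Tnfsf8 and Ltb were found together in 198 splenic cells, against 196.6 from the product, and in 181 of the Ccl5-low cells without a Foxp3 UMI, against 180.9. In intestine they met in 20 cells against 13.1, but in 7 against 6.39 among Ccl5-high and 12 against 11.1 among Ccl5-low cells without a Foxp3 UMI. Tnfsf8 and Fasl met in 3 splenic cells against 8.37, and Ltb and Fasl in 10 against 16.7. These products run over all Ccl5 states, in which Fasl and Tnfsf8 differ, and the part of state was not tested. Among cells without a Foxp3 UMI, Ltb and Fasl met in 4 Ccl5-low cells against 6.98 and in 5 Ccl5-high cells against 6.33. Cd40lg and Ltb met in 42 splenic cells against 32.9, so that 66.7% of Cd40lg-positive cells (53.7 to 78.0) and 51.6% of the others (49.0 to 54.3) held Ltb. In intestine the same pair met in 16 cells against 21.3. The death ligands Tnfsf10 and Fasl met in 5 intestinal cells against 8.37, so cells with TRAIL were not the cells with Fas ligand more often than the product gives. Tnfsf8 and Tnfsf11 met in 11 splenic cells against 5.23. Over the pairs with at least 5 cells from the product, observed over product ran from 0.359 to 2.10 in 11 splenic and from 0.598 to 1.53 in 9 intestinal pairs.

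**Figure D5:**
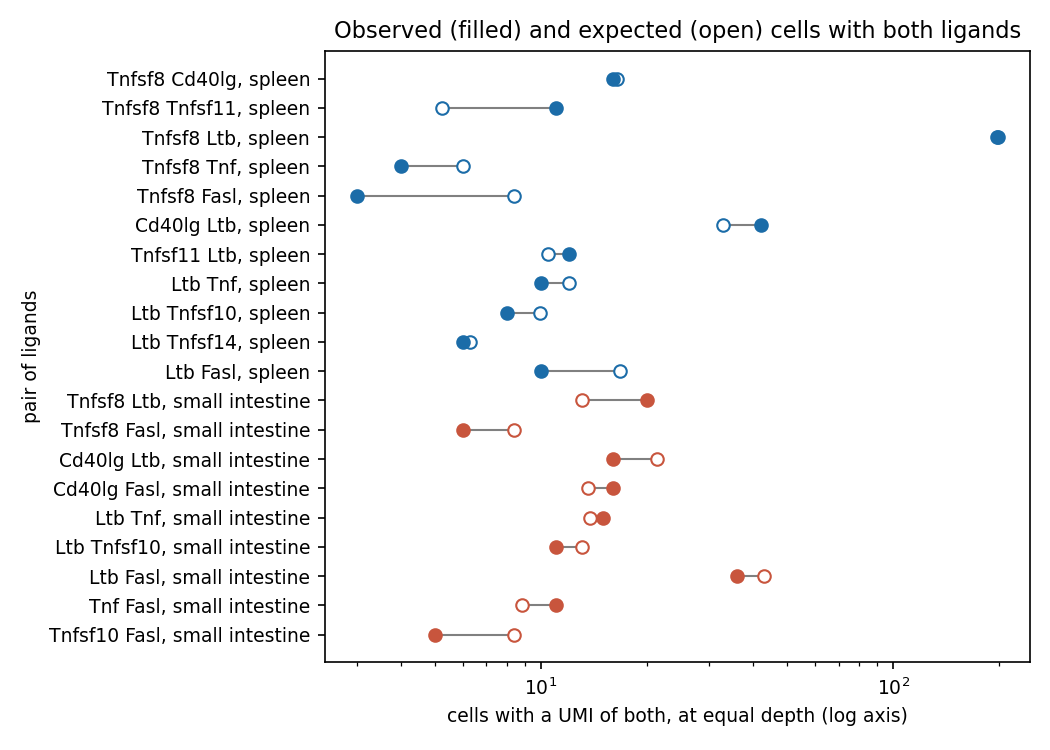
Number of cells with both ligands of a pair at equal depth (filled points, log axis) and the number from the product of their shares (open points), for the 11 splenic and 9 intestinal pairs with at least 5 from the product. Over all Ccl5 states together, Tnfsf8 with Ltb lay at 198 against 196.6 splenic cells, and Tnfsf8 with Fasl at 3 against 8.37.

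Other ligands of the superfamily were hardly counted. Of 9 looked at, only Tnfsf9, which encodes 4-1BB ligand, reached 50 UMIs in the tissue comparison, at 6.56 CPM in spleen and 12.7 CPM in intestine, a difference under 2-fold. Tnfsf13b, or BAFF, gave 10 and 26 UMIs, and Tnfsf4, or OX40 ligand, gave 13 and 1. Tnfsf15 and Cd70 gave at most 1 UMI per tissue, and Tnfsf18, Eda, Tnfsf12 and Tnfsf13 gave 0. The last pair overlaps the readthrough gene Tnfsfm13 on the same strand, so their counts of 0 do not show absence.

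The receptors of the ligands were partly detected in the same libraries. Receptor and ligand were not counted together within single cells. Of 10 receptor genes, 4 had at least 50 UMIs in the tissue comparison. Fas, the receptor of Fas ligand, stood at 103 CPM in spleen and 14.1 CPM in intestine, a log2 ratio of 2.87 (2.52 to 3.24), opposite in direction to Fasl. Tnfrsf8, which encodes CD30, stood at 5.14 against 1.79 CPM, higher in spleen as was Tnfsf8. Tnfrsf1a was lower in spleen, at 8.09 against 19.5 CPM, and Tnfrsf1b, the TNF receptor of lymphocytes, stood at 123 and 133 CPM. Cd40, Ltbr, Tnfrsf11a and Tnfrsf11b gave at most 1 UMI per tissue, so CD40, the lymphotoxin beta receptor and the receptors of RANK ligand were at or near the limit of detection at this depth. In the comparison by Foxp3, Tnfrsf1b stood at 192 against 99.0 CPM (log2 ratio 0.96) and Fas at 61.1 against 118 CPM (−0.95), each just under 2-fold. Tnfrsf8, with 25 and 22 UMIs and so under the minimum, stood at 10.8 against 3.22 CPM (log2 ratio 1.74, 0.85 to 2.64), opposite in direction to Tnfsf8. By Ccl5, 3 of the 10 receptors had at least 50 UMIs in each tissue, and 0 of these passed 2-fold. Of all genes, 2.46% were higher and 3.59% lower by that bound in spleen, and 5.81% and 6.36% in intestine. Below that minimum, Tnfrsf8 gave 5 UMIs in intestinal Ccl5-high and 4 in Ccl5-low cells (1.09 against 9.01 CPM, log2 ratio −3.05, −5.26 to −0.71).

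All 12 adaptor and death pathway genes had at least 50 UMIs. Birc2, a ubiquitin ligase of TNF receptor complexes, was the only member of this list past 2-fold between tissues, at 37.0 CPM in spleen and 115 CPM in intestine. Of 9032 genes, 10.4% were at least 2-fold lower and 13.6% at least 2-fold higher in spleen. Traf1, an adaptor of CD30 and TNF receptor 2, stood at 165 and 319.9 CPM (log2 ratio −0.96). Traf1 was also the only adaptor past 2-fold by Ccl5, at 337 CPM in intestinal Ccl5-high and 142 CPM in Ccl5-low cells. There, 5.81% of 6870 genes were at least 2-fold higher and 6.36% lower. By Foxp3 and by Ccl5 in spleen, 0 of 12 passed. Of 8117 genes, 1.47% were higher and 2.53% lower by Foxp3, and 2.46% higher and 3.59% lower by splenic Ccl5.

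Across the 13 clusters of both tissues, some ligand levels varied together and others in opposite directions. As a description, Pearson's r of log2(CPM + 10) was −0.91 between Tnfsf8 and Tnfsf10, −0.85 between Ltb and Fasl, 0.85 between Tnfsf10 and Fasl, and 0.71 between Cd40lg and Tnf. Of 6079 genes with at least 200 UMIs, those most like Tnfsf8 were Ei24 (r = 0.89), Tcf7 (0.88), a transcription factor of naive and helper T cells, and Egln3 (0.87). Those most like Ltb were Tspan32 (0.97), Kbtbd11 (0.96) and Gm9844 (0.95), and those most like Fasl were Cd68 (0.98), Cd38 (0.98) and Acoxl (0.96). For Cd40lg they were BC037034 (0.92), Cd4 (0.89) and Axin1 (0.89). For Tnf they were Ccnl1 (0.96), Esco1 (0.92) and Gadd45b (0.92), and for Tnfsf10 Hip1 (0.94), Eif2ak3 (0.93) and Dapk2 (0.93). The 13 points come from 2 libraries, so the gap between the tissues enters every r.

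Finally, cells were divided by an Il10 UMI, found in 952 splenic and 926 intestinal cells. In spleen, cells with Il10 mRNA had lower levels of Tnfsf8 (225 against 309.8 CPM), Ltb (441 against 546 CPM), Cd40lg (14.7 against 23.1 CPM) and Tnfsf11 (3.66 against 9.23 CPM). These cells were deeper, with a median of 6067 UMIs against 4460. In intestine, Fasl (76.7 against 72.4 CPM) and Tnfsf8 (39.2 against 36.6 CPM) had overlapping intervals, and Ltb stood at 143 CPM (131 to 155) against 192 CPM (168 to 219). The splenic intervals of the level overlapped for Cd40lg and did not for Tnfsf8, Ltb and Tnfsf11. At equal depth the intervals of the share of splenic cells overlapped for each of these genes, and each share was lower with an Il10 UMI. Overlapping intervals do not show that levels or shares are equal. With and without an Il10 UMI, the shares were 23.9% (21.2 to 26.7) and 30.5% (26.4 to 34.7) for Tnfsf8. They were 50.6% (47.3 to 53.8) and 55.5% (51.0 to 59.9) for Ltb, and 0.958% (0.439 to 1.81) and 2.20% (1.11 to 3.91) for Tnfsf11.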

How the data were processed

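Deposited gene by cell count matrices were used as the authors made them from 10x Genomics reads; the submitters' processing notes name Cell Ranger and Trimmomatic, and the study's methods give the mm10 build. Their values are whole UMI counts per gene, not normalized. The members, gene lists and tests were chosen with earlier results of these data known. Barcodes more than 3 median absolute deviations below the median in library size or genes, or above it in mitochondrial share, were removed (90 splenic, 135 intestinal), and then G2/M cells by cyclone (1000 iterations; 180 and 62), with R 4.3.3, scran 1.30.0, scuttle 1.12.0, bluster 1.12.0 and Matrix 1.6.5. Highly variable genes numbered 125 in spleen and 69 in intestine. Of these, 2 and 1 were among the listed ligands or the receptors of the 9 ligands and were left out. The rest gave 20 principal components, a graph of 10 nearest neighbours and Louvain clusters. Counts were summed per group and divided by the group's UMIs, with Python 3.11.15, numpy 2.4.6 and scipy 1.17.1, and figures were drawn with matplotlib 3.10.9. Ratios were taken for genes with at least 50 UMIs in both groups together, a gene counted as higher or lower past 2-fold, and with 1 library per tissue no p was computed. For co-detection and shares each cell was thinned to 2094 UMIs, the 10th percentile of intestinal cells, which left out 30 splenic and 128 intestinal cells. Scrublet (scanpy 1.11.5) marked 2 splenic and 11 intestinal kept cells, and no cell was removed as a doublet. Named genes were the 9 ligands, the other ligands, receptors and adaptors of the family, the 5 leading genes of each cluster and the 3 genes most like each ligand over clusters. Leading genes had the highest log2 ratio of CPM + 10 to the other cells, among genes in at least 25% of the cluster's cells. Clusters are called by leading genes outside the listed ligands and the receptors of the 9 ligands. Tnfsf11, Lta and Tnfsf14 have too few UMIs for a list of genes most like them. The ratio and interval code was tested on simulated data. Gene positions are those of GENCODE vM21. Alternatives changed the cell filters, the scaling, the UMI minimum, the fold, the Foxp3 and Ccl5 definitions, the thinning depth and the graph. A further check that left out cells by a list of other genes is not reported here.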

Additional observations from a re-analysis of the deposited data

How the results depend on the processing

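Of 249 ligand ratios recomputed under other settings, 232 moved by less than their counting interval. The setting that compared intestinal cells with at least 20 Ccl5 UMIs per 10000 with the 6 cells that have none says nothing of direction: those 6 cells hold 0 UMIs of Tnfsf10, Fasl and Tnf, so their ratios are lower bounds set by a floor of 3 counts (log2 −1.91 for Tnfsf10 and −0.61 for Fasl), and the resulting counts of ligands higher and lower, 0 and 4, are set by that floor in part. The counts of ligands under other settings are given without the share of all genes past the same bound. That share changes with the setting too, so these counts describe the settings only. With a minimum of 20 UMIs, 5 ligands were higher in spleen, 5 were lower with a Foxp3 UMI and 2 were lower in splenic Ccl5-high cells. With a minimum of 200 UMIs, the count lower with a Foxp3 UMI was 1, that higher in splenic Ccl5-high cells 0, and those higher and lower in intestinal Ccl5-high cells 1 and 1; the minimum itself leaves fewer genes. At 1.5-fold, 2 ligands were higher in splenic Ccl5-high cells, and at 3-fold 1 was higher and 1 lower in intestinal ones. With G2/M cells kept or all barcodes used, 2 were lower in splenic Ccl5-high cells. Without cells holding both Cd8a and Cd8b1 or with median scaling, 1 was lower in intestinal Ccl5-high cells. Asking for 1 UMI of Foxp3 or of the mRFP reporter, leaving out the splenic Tbc1d4 cluster and a Ccl5 bound of 40 were chosen after seeing the data, and none of them moved a count of ligands past 1.5 times. The share of splenic cells with at least 2 ligands was 20.2% under another thinning. All 54 shares recomputed gave 42 within the main interval; thinning to 3696 UMIs raised 11 of the other 12. No paired analysis was possible because each tissue has 1 library. Depth limits Lta, Tnfsf14 and Tnfsf11, with 32, 42 and 58 UMIs in all.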
